A study of Mus musculus with 2 samples.

Results

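The genes described here encode the NF-kB transcription factor subunits and their main inhibitors, chosen as a list of 10: Nfkb1, Nfkb2, Rel, Rela, Relb, Nfkbia, Nfkbib, Nfkbie, Nfkbiz and Tnfaip3. For each, the transcript cluster with that single symbol was taken, and 9 of the 10 were found among the 19938 genes named on the array. Nfkb1 was not analysed here, because no transcript cluster carries its symbol in the probe table used. The samples were CD4+ T cells of mouse spleen, sorted by strong surface staining for TCR beta and CD4, with naive cells enriched through low surface CD44. The knockout sample (Taf7 -/-) came from Taf7 f/- animals with the 8EIII-cre transgene, and the heterozygous sample (Taf7 +/-) from Taf7 f/- animals without it. Both therefore carried 1 floxed and 1 null allele before recombination, on a mixed C57/BL6 and 129 background, and only the knockout carried Cre, so Cre and the loss of Taf7 cannot be told apart. The labels do not give the age of the animals, how many were pooled, or in which cells the transgene acts.

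NF-kB proteins are dimers of Rel family subunits that bind kappa B sites in DNA. In resting lymphocytes the IkB proteins hold most of these dimers in the cytoplasm. Signals from the T cell receptor with CD28, and from receptors of the TNF family, activate the IkB kinase, which marks IkB for destruction and frees the dimers. Nfkbia and Tnfaip3 are themselves classical NF-kB target genes, so that the pathway restrains itself.

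Total RNA of each sample was hybridised to 1 array, so no difference below has a replicate check, and no test between genotypes was run. The values are the authors' log2 gene-level signals, and differences are the knockout minus the heterozygote. A gene entered the counts where its mean over both arrays reached a log2 value of 7.71, the 50th percentile of all rows, which 10457 genes did. Sizes of 1.2-fold (0.26 on the log2 scale) and 1.5-fold (0.58) were used to count differences. The median difference of all genes above the filter was -0.05, with a central 95% range of -0.62 to 0.39. Below the filter the median was 0.14, so weak genes leaned the other way. Taf7, the targeted gene, gave log2 signals of 8.34 (heterozygote) and 7.79 (knockout). Whether its probes fall in the deleted part of the gene is unstated in the labels, so this does not check the genotype. The T cell markers Cd3e (13.49 and 13.50) and Cd4 (12.99 and 12.77) had high signals on both arrays, in the order heterozygote and knockout. Of the 7 such markers measured, all above the filter, Cd3d was the only one to pass 1.2-fold, at 11.56 and 11.06.

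All 9 measured NF-kB genes lay above the filter on both arrays, and none differed by 1.5-fold between the genotypes. Of all genes above the filter, 3.62% did, 0.449% being higher and 3.17% lower in the knockout. At 1.2-fold, Nfkbiz was the only member higher and Rel the only one lower, where 8.32% of all genes were higher and 18.5% lower. In either direction 2 of the 9 passed 1.2-fold, beside 26.8% of all genes. At any size, 4 members were higher and 5 lower, beside 40.9% and 59.1% of all genes, and their median difference was -0.03 beside -0.05 for all genes. After centring 2 members were lower, beside 5228 of the 10457 genes, and 3 after removal of a loess trend or quantile normalization, beside 49.9% and 48.2%. The sign of that median turned with the scaling: it was 0.02 after centring on the median gene, 0.05 after quantile normalization and 0.09 after a loess trend on mean signal was removed.

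**Figure D1:**
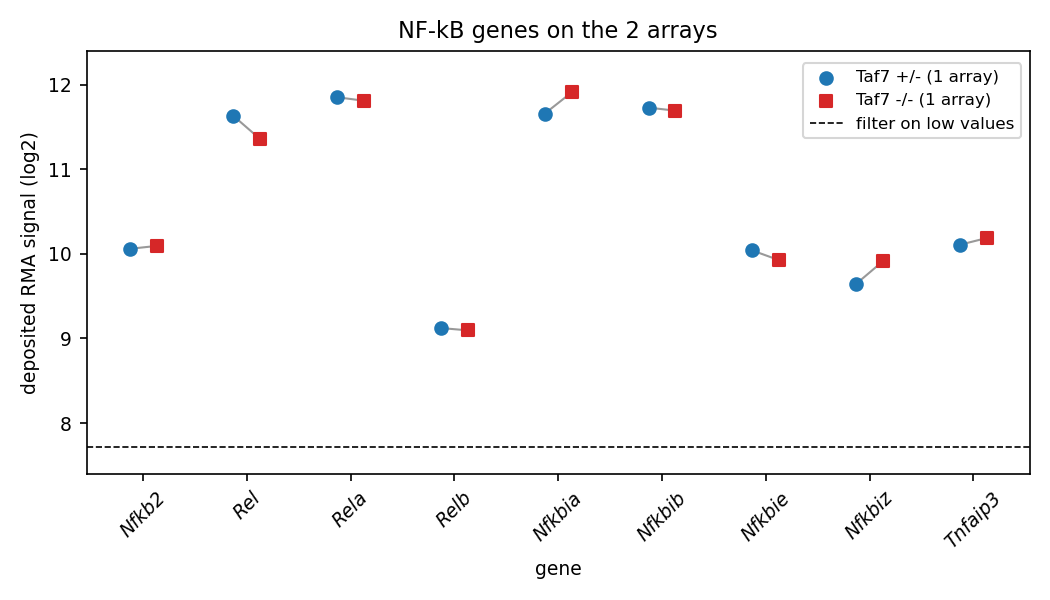
Deposited log2 signal of the 9 measured NF-kB genes on the heterozygous array (blue circles) and the knockout array (red squares), joined by a line for each gene, with the filter value of 7.71 dashed. All points lie above the filter, and Rel, Nfkbia and Nfkbiz have the steepest lines; levels of different genes come from different probes and are not comparable.

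Among the DNA-binding subunits, the lower signal of Rel in the knockout was the largest difference. Rel, which encodes c-Rel, a subunit with a transactivation domain that is most abundant in lymphocytes, gave a log2 signal of 11.63 in heterozygous and 11.35 in knockout cells. The difference was -0.28, or 1.21-fold lower, and 24.4% of all genes above the filter differed by more. It just passed the 1.2-fold size as deposited, and was -0.23 after centring, after quantile normalization and after removal of the loess trend, which is under that size. Rela, which encodes p65, the other main transactivating subunit of T cells, had 11.85 and 11.81 on the log2 scale, in the order heterozygote and knockout. Its difference of -0.04 was small beside the spread of all genes, and changed sign to 0.01 after centring. These 2 subunits thus differed unequally, with Rel lower by 1.18-fold relative to Rela in the knockout than in the heterozygote. That ratio compares changes within each array and does not depend on a constant offset between them.

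The subunits of the alternative pathway showed little difference. Nfkb2 encodes the precursor p100, which is processed to p52 when the kinase NIK is active. Its log2 signal was 10.06 in heterozygous and 10.09 in knockout cells, a difference of 0.03 that reached 0.13 after removal of the loess trend. Relb, the usual partner of p52, had 9.12 and 9.10 on the log2 scale, a difference of -0.03 that became positive with each of the 3 rescalings of the arrays, reaching 0.09 after removal of the loess trend. Of all genes above the filter, 87.6% differed by more than Nfkb2 and 89.8% by more than Relb. The 4 measured subunits had a median difference of -0.03.

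Of the 3 cytoplasmic inhibitors, Nfkbia was higher in the knockout and the other 2 were close to the median gene. Nfkbia encodes IkB-alpha, the inhibitor that is degraded fastest on activation and resynthesised under NF-kB control. Its log2 signal was 11.66 in heterozygous and 11.91 in knockout cells. The difference of 0.25, or 1.19-fold higher, lay just under the 1.2-fold size, and passed it after centring (0.30), after removal of the loess trend (0.29) and after quantile normalization (0.31). Of all genes above the filter, 28.7% differed by more in either direction. Nfkbib, which encodes IkB-beta, had 11.73 and 11.69 on the log2 scale, a difference of -0.04 whose sign turned to 0.01 after centring. Nfkbie, which encodes IkB-epsilon, had 10.04 and 9.92, a difference of -0.12 that shrank to -0.02 after removal of the loess trend. The 3 inhibitor genes thus did not differ as a block, and only Nfkbia came near 1.2-fold.

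Nfkbiz had the highest difference of the 9 genes. It encodes IkB-zeta, an atypical nuclear member of the IkB family that acts with NF-kB on promoters and is itself induced by activation. Its log2 signal was 9.64 in heterozygous and 9.91 in knockout cells, higher by 0.27 or 1.21-fold. The difference lay between 0.27 and 0.38 as deposited and over the 3 rescalings. It passed 1.2-fold in each of them, but only just as deposited. Of all genes above the filter, 25.5% differed by more in size, and 92.1% had a lower signed difference. The other 2 nuclear IkB genes, which were not on the list of 10, were nearer to 0: Bcl3 at 0.13 and Nfkbid at 0.02 on the log2 scale.

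Tnfaip3, which encodes A20, a ubiquitin-editing enzyme that switches off signalling to the IkB kinase, differed little. Its log2 signal was 10.11 in heterozygous and 10.19 in knockout cells. The difference of 0.08, or 1.06-fold higher, lay between 0.08 and 0.17 as deposited and over the 3 rescalings, below the 1.2-fold size in each.

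**Figure D2:**
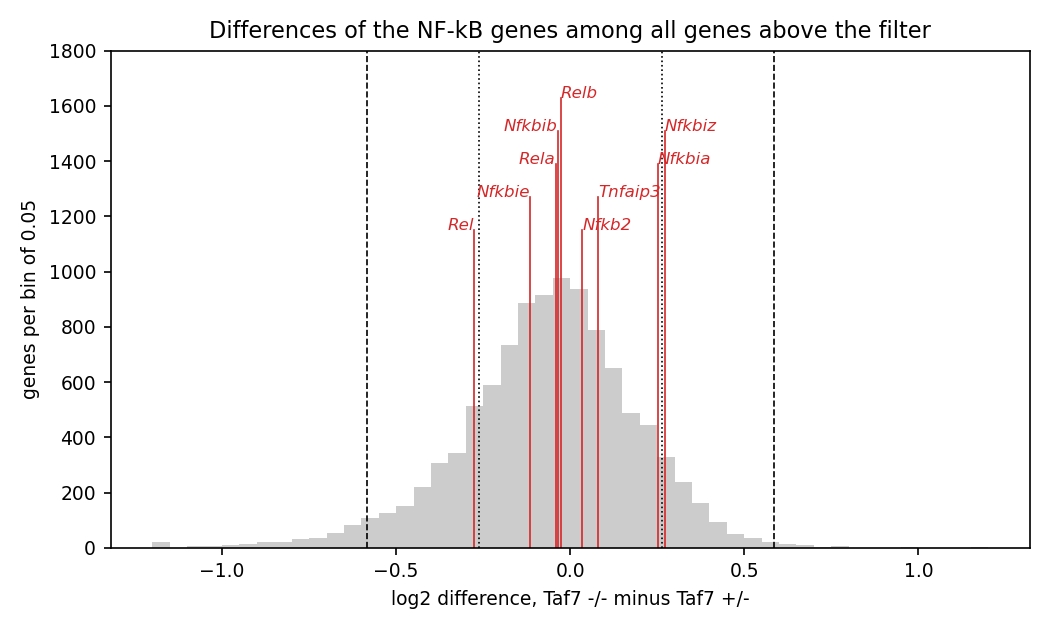
Histogram of the log2 difference (knockout minus heterozygote) of the 10457 genes above the filter in bins of 0.05, with the 9 NF-kB genes as red lines and the sizes of 1.2-fold (dotted) and 1.5-fold (dashed) marked; genes beyond the axis fall in the outermost bins. All 9 lie inside the 1.5-fold lines, with Rel the lowest at -0.28 and Nfkbiz the highest at 0.27.

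Since NF-kB controls several of its own genes, the bases before their transcription starts were searched for the kappa B consensus. The RefSeq promoter table (GRCm38.p6) held 10 promoters of 7 of the 10 listed genes: Nfkb2, Rel, Rela, Nfkbia, Nfkbib, Nfkbie and Tnfaip3. In the 250 bases before the start, on both strands, the consensus was found in 5 of these 10 promoters, belonging to Nfkb2, Rel, Nfkbia and Tnfaip3. It was found in 1643 of the 32851 promoters of the table. A looser form of the motif, with only its first 3 and last 2 bases fixed, was found in 9 of the 10 and in 45.8% of all promoters, so it says little by itself. Rel, Nfkbia and Tnfaip3 are shown because they hold the consensus outside the annotated span of the gene and include the lowest subunit, the highest cytoplasmic inhibitor and a gene with little difference. Each is printed 5′ to 3′ on the gene's strand, all 3 being on the minus strand, and capitals mark the consensus matches of 10 bases on either strand, with overlapping matches joined.
Rel, chr11:23770970-23771219: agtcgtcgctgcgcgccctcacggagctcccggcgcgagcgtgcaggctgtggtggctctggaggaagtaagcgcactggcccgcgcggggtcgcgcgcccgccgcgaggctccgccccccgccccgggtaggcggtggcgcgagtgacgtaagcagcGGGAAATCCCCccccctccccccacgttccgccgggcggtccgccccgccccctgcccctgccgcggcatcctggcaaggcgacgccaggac
Nfkbia, chr12:55492648-55492897: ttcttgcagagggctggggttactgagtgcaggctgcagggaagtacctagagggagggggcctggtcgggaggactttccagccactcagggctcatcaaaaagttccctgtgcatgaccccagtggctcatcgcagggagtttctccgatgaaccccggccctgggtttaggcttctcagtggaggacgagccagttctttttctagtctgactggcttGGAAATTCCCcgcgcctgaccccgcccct
Tnfaip3, chr10:19015411-19015660: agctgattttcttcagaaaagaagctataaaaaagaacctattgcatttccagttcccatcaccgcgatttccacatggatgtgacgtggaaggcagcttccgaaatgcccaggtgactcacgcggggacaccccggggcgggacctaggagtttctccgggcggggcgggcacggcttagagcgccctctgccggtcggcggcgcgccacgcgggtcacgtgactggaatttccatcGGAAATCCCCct
The capitals begin 92 bases before the start in Rel, where 2 matches overlap, 29 bases before it in Nfkbia and 12 bases before it in Tnfaip3. The 3 genes with these letters had log2 differences of -0.28, 0.25 and 0.08, and Nfkb2, with the consensus before 2 of its 3 starts, had 0.03. Holding the consensus therefore went with no common direction among these members. Whether any factor bound there was not measured.

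The rest of the pathway, in lists of 67 genes that feed into NF-kB or restrain it, leaned lower, as all genes did. Of the 57 above the filter, 36 were lower and 21 higher in the knockout, or 63.2% lower beside 59.1% of all genes; after removal of the loess trend 56.1% were lower beside 49.9%. None was higher by 1.2-fold and 14 were lower by 1.2-fold, beside the 8.32% and 18.5% of all genes given above. Their median difference was -0.12, beside -0.05 for all genes, and shrank to -0.03 after removal of the loess trend and to -0.04 after quantile normalization. After either of these, 10 were lower by 1.2-fold, beside 13.5% and 13.4% of all genes, while 3 and 2 were higher, beside 8.59% and 9.94%.

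The kinase step had small differences. Of the IkB kinase and its upstream kinases with their partners, 9 of 10 listed genes were measured and above the filter, 3 higher and 6 lower, which became 5 and 4 after any of the 3 rescalings, with a median of -0.04. Ikbkb, the catalytic subunit of the IkB kinase that acts on IkB in the classical pathway, had log2 signals of 11.30 and 11.41, again heterozygote first. Ikbkg, its regulatory subunit NEMO, had 9.54 and 9.42. Ikbke, a related kinase, had the highest log2 difference, 0.20, followed by Ikbkb at 0.11 and Map3k7, which encodes TAK1, at 0.04. The TAK1-binding proteins Tab1 at -0.33 and Tab3 at -0.29 were the lowest, both under 1.2-fold in size after removal of the loess trend, followed by Map3k14, which encodes NIK, at -0.13.

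The chain from the T cell receptor to the IkB kinase was also close to the median gene, with 4 of 10 measured genes higher, 6 lower and a median of -0.09. Ube2n, the ubiquitin-conjugating enzyme that builds K63-linked chains, was the lowest: 11.02 in heterozygous and 10.67 in knockout cells, which makes a log2 difference of -0.35. Its other transcript cluster was at -0.38. Casp8 at -0.14 and Ube2v1, the partner of Ube2n, at -0.13 came next, the other clusters of Ube2v1 being at -0.25 and -0.21. The 3 subunits of the linear ubiquitin ligase were the highest, Rbck1 at 0.17, Rnf31 at 0.13 and Sharpin at 0.12, each under 1.2-fold.

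Among the TRAF and cIAP genes, which restrain NIK and relay TNF receptor signals, Traf1 stood apart. Its log2 signal was 11.12 in heterozygous and 10.55 in knockout cells, or 1.49-fold lower (-0.58). Birc2 and Birc3, which encode the cIAP ubiquitin ligases, were both at -0.13, but the other transcript cluster of Birc2 was at 0.08, and Traf2 was at -0.06. The 16 other negative regulators split into 7 higher and 9 lower, or 8 and 8 after rescaling, and their median was -0.06. The A20-binding proteins went opposite ways, Tnip1 at -0.39 and Tnip2 at 0.25 on the log2 scale. Otud7b, a deubiquitinase, was at -0.34 and Tax1bp1, an adaptor of A20, at -0.27. Nkiras2, a Ras-like inhibitor, at 0.13 and Itch, a ubiquitin ligase that works with A20, at 0.11 were the next highest after Tnip2.

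Receptors that signal to NF-kB had the lowest median of these lists. Of the 10 above the filter, 8 were lower and 2 higher, before and after rescaling, beside 59.1% of all genes lower as deposited. Their median was -0.27. At 1.2-fold 5 were lower, beside 18.5% of all genes. After removal of the loess trend or quantile normalization 3 were lower at that size, beside 13.5% and 13.4% of all genes. Il18r1, a chain of the interleukin-18 receptor, had 10.04 in heterozygous and 9.54 in knockout cells, which makes a log2 difference of -0.50. The costimulatory receptors Cd28 at -0.42 and Cd27 at -0.35 followed. Cd40 at 0.22 and the lymphotoxin receptor Ltbr at 0.19 were the 2 that were higher, with signals near the filter in both samples, and Tnfrsf9, or 4-1BB, was at -0.21. Among ligands, 6 of 10 were above the filter and 3 were lower: Cd40lg, which T cells use to activate B cells, had 11.13 and 10.13, followed by Ltb, lymphotoxin beta, at -0.38 and Tnfsf8 at -0.13. Tnfsf11, or RANKL, was at 0.25, Tnf at 0.16 and Lta at 0.11.

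**Figure D3:**
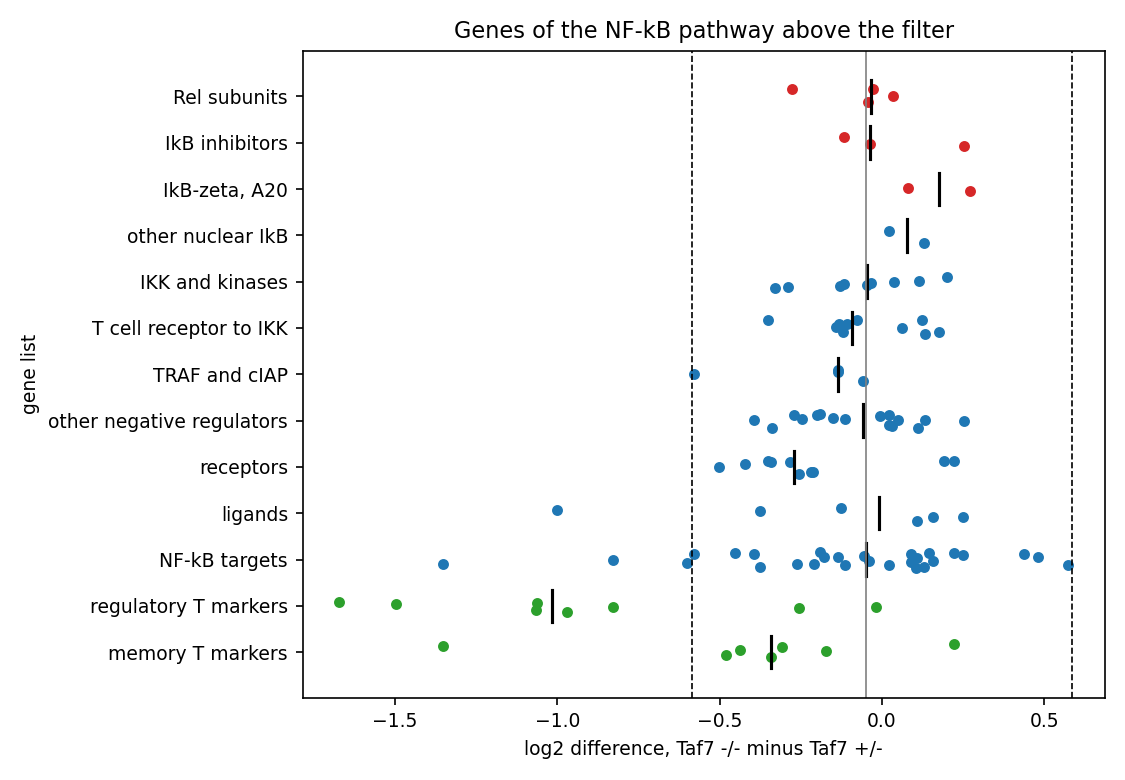
Log2 difference (knockout minus heterozygote) of each gene above the filter in lists of the NF-kB pathway: red, the listed subunits and inhibitors; blue, other pathway genes and targets; green, T cell subset markers. Black bars are list medians, the grey line is the median of all genes at -0.05 and dashed lines mark 1.5-fold; the regulatory T cell markers have a median of -1.02, far below that of the Rel subunits at -0.03.

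Genes commonly listed as NF-kB targets differed in both directions. Birc3, Traf1, Tnf, Lta, Ltb, Bcl3, Tnip1 and Nfkbid, 8 in all, also stand in the pathway lists above, so the counts overlap. Of 42 listed, 39 were measured and 28 lay above the filter, split into 13 higher and 15 lower, beside the 40.9% and 59.1% of all genes, or 14 and 14 after any of the 3 rescalings. Their median was -0.05, equal to that of all genes to 2 decimals. At 1.2-fold 3 of the 28 were higher and 7 lower, beside 8.32% and 18.5% of all genes. After centring these counts were 5 and 7, beside 12.3% and 14.1%; after removal of the loess trend 6 and 8, beside 8.59% and 13.5%; and after quantile normalization 5 and 8, beside 9.94% and 13.4%. The highest were Icam1, an adhesion molecule, from 9.65 to 10.22 on the log2 scale (0.57), Gadd45b, a stress and survival gene, from 9.15 to 9.63 (0.48), and the activation marker Cd69 from 12.06 to 12.50 (0.44), each from heterozygote to knockout. The lowest were Cd44 at -1.35, the interleukin-2 receptor gene Il2ra at -0.83, and the immunoproteasome subunit Psmb9 at -0.60. Low surface CD44 was also used to enrich the cells, so Cd44 is no independent measurement here. The kappa B consensus was held by 11 of the 40 promoters found for these targets.

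Markers of regulatory T cells were lower in the knockout, with a median of -1.02 beside -0.05 for all genes. In these cells c-Rel is known to support Foxp3 expression, but a link between these markers and the signal of Rel was not tested. All 8 listed markers were lower, or 7 of 8 after rescaling, where Gpr83 at -0.02 turned, beside 59.1% of all genes as deposited. At 1.5-fold 6 were lower, beside 3.17% of all genes, and Foxp3 went from 11.25 to 10.19 on the log2 scale. Nrp1, among the 6, went from 8.75 to 7.08. Its knockout signal was below the filter value of 7.71, and it entered the count through its mean over both arrays. The summed linear signal of the 8 was 15564 in the heterozygote and 9195 in the knockout. Of 9 memory T cell markers 7 lay above the filter, 6 lower and 1 higher, beside 59.1% of all genes lower. The sums of all 9 were 9402 and 7355. Both the count and the sums include Cd44, which is no independent measurement because of the enrichment for low surface CD44. The part of these cells in the differences of Rel, Traf1, the receptors and the targets was not tested, and in such a sample fewer cells of a type and less RNA per cell cannot be told apart. Without the genes that stand in either marker list, the targets above the filter numbered 25, with a median of -0.04, 3 higher and 5 lower by 1.2-fold, and the receptors 9, with a median of -0.28. Only 3 targets and 1 receptor were taken out, so these values cannot tell what part such cells have.

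**Figure D4:**
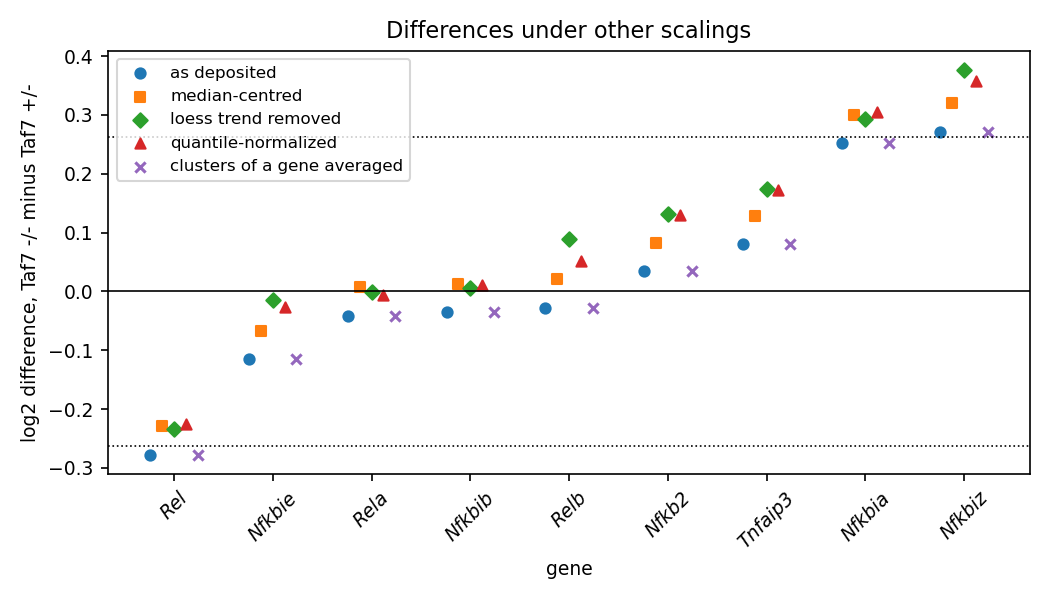
Log2 difference (knockout minus heterozygote) of the 9 NF-kB genes as deposited, after centring on the median gene, after removal of a loess trend, after quantile normalization and with the transcript clusters of a gene averaged, with dotted lines at 1.2-fold. Nfkbiz is above the upper line in every setting, Rel is below the lower line only as deposited and with clusters averaged, and Rela, Nfkbib and Relb straddle 0.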

How the data were processed

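The table analysed holds log2 RMA signals per gene for 2 arrays, which the authors made in Affymetrix Expression Console version 1.1 from the core gene set, per the series design text; RMA also stands in the submitters' processing notes. No genome build is named in those sources. An exon array is named in the design text, but the row identifiers match a probe table of a gene-level array; the chip was not settled, and gene names rest on that table. Of 35556 rows, 21789 had 1 gene symbol in the probe table, 1621 several and 12146 none. Only rows with 1 symbol were named, and the cluster of highest mean was taken per gene; each of the 9 measured members had 1 cluster and its symbol matched the RefSeq gene table. No normalization was added. Counts used genes with a mean at or above the 50th percentile of rows. With 1 array per genotype, called means past a fold, and precision is limited by the number of arrays.

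Named are the members, Taf7 and up to 3 genes at each end of every pathway list. Bcl3, Nfkbid, Ikbkg, the second clusters, the T cell markers and the markers named below the filter were chosen after their values were seen. The members and lists were chosen with earlier results of these data known. The counting and the loess step were tested on simulated data. The simulated differences were larger than that of any member and were counted at 1.5-fold only, so this does not check counts near 1.2-fold. Alternatives were 4 scalings or cluster rules, 3 filters and, added after seeing the data, lists without regulatory and memory T cell markers. Promoters were taken from RefSeq by symbol. Scripts ran in Python 3.11.15 with pandas 2.3.3, numpy 2.4.6, matplotlib 3.10.9 and, for the loess trend (span 0.3), statsmodels 0.14.6.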

Additional observations from a re-analysis of the deposited data

How the results depend on the processing

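No paired analysis was possible because there is a single array for either genotype, which also means that leaving out an array is not an option. After centring, removal of the loess trend or quantile normalization, 2 members (Nfkbia and Nfkbiz) were at least 1.2-fold higher and 0 at least 1.2-fold lower, against 1 and 1 as deposited. Each of these settings moves the offset between the arrays, and Rel, Nfkbia and Nfkbiz lie next to the size as deposited. No member passed 1.5-fold in any setting. The median of the members was between -0.03 and 0.09. Among all genes above the filter, those at least 1.5-fold higher numbered 71 after centring, against 47. The share of 1.2-fold differences that were lower was 69.0% as deposited, 53.5% after centring, 57.4% after quantile normalization and 61.1% after removal of the loess trend. Filters changed the counts because they change how many genes enter. At the 75th percentile 191 genes were higher and 857 lower at 1.2-fold, and 16 and 105 at 1.5-fold. At the 25th percentile 2275 were higher and 2130 lower at 1.2-fold. With no filter 3019 were higher and 2217 lower at 1.2-fold, and 91 higher at 1.5-fold. With these 2 filters, which admit weak genes, the lower share at 1.2-fold was 48.4% and 42.3%, so the balance of all genes turned. No result past a size changed sign. Signal over background was not analysed here.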

Other observations

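Differences between members within each array do not depend on a constant offset between the arrays. These pairs were picked with their values in view, and they have no replicate check. The change of Nfkbia exceeded that of Rel by 0.53 on the log2 scale, or 1.44-fold, and by the same amount after removal of the loess trend. The change of Nfkbiz exceeded that of Rel by 0.55, and by 0.61 after that removal. Nfkbia exceeded Nfkbib by 0.29, and Nfkbie by 0.37, or 0.31 after removal of the trend.

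Marker genes of non-CD4 cell types in spleen were mostly below the filter. Of 11 B cell markers measured, 2 lay above it, Cd74 and Cd79b, both with log2 differences between -0.12 and -0.01. Of all 11, 8 were higher and 3 lower in the knockout, where the median of all genes below the filter was 0.14. The summed linear signal was 1415 in the heterozygote and 1518 in the knockout. Of 10 myeloid markers 1 lay above it, Cd68 at 0.14, with sums of 1480 and 1422. Of all 10, 6 were higher and 4 lower in the knockout. Among those below the filter, Itgam had a log2 difference of -0.79, from 7.83 in the heterozygote to 7.04, and Fcgr3 one of -0.44. S100a9 at 0.31 and Csf1r at 0.19, also below the filter, went the other way. Of 8 markers of CD8 T and natural killer cells 3 lay above it, Cd8b1 at -0.26, Nkg7 at -0.41 and Prf1, perforin, at -0.50, with sums of 3339 and 2670. Of all 8, 1 was higher and 7 lower in the knockout. Their median was -0.07, against -0.41 for the 3 above the filter, and Cd8a, below the filter, was at 0.02. Of 5 platelet and erythroid markers 1 lay above it, Itga2b at 0.23, with sums of 670 and 774. Naive T cell markers, 6 measured, were all above it, with a median of -0.11, the lowest being the interleukin-7 receptor gene Il7r at -0.22 and the highest Klf2, a quiescence factor, at 0.11.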
